A study of Danio rerio with 10 samples.

Results

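Aminoacyl-tRNA synthetases are the enzymes that load each tRNA with its amino acid. The set described here holds 33 named zebrafish synthetase genes, 19 for cytosolic and 14 for mitochondrial enzymes, taken from a list of symbols that was drawn up with earlier results of these data known. Symbols were matched to Ensembl gene IDs without regard to case, also after dropping a final 1, a or b. Of the 33 genes, 32 were found among the 32057 genes of the count files, 18 cytosolic and 14 mitochondrial, and all 32 passed the filter on low counts that left 20867 genes for testing. The symbol hars had no match; the histidyl-tRNA synthetase gene in the name table is HARS2, which is described with the related genes below. The symbol lars1b matched LARS1 once its final letter was dropped.

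RNA was sequenced from whole wild-type zebrafish embryos kept in thallium nitrate from 6 to 48 hours post fertilisation. Groups were 0 ppb (5 libraries), 200 ppb (3 libraries) and 800 ppb (2 libraries), and all came from the wild type with no transgene or mutation named. Thallium is a toxic heavy metal whose ion resembles that of potassium. Total counts ran from 12.1 to 48.3 megareads per library. No label tells whether the replicates of a dose were separate clutches of embryos, so p-values cover only the variation among these libraries, and that variation may be technical.

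Cytosolic synthetases supply the charged tRNAs read by the ribosomes of the cytoplasm. A largely but not fully separate set, encoded in the nucleus and imported, serves the ribosomes inside mitochondria. In mammalian cells, stress kinases that phosphorylate the initiation factor eIF2 raise translation of the transcription factor ATF4. ATF4 in turn activates genes for amino acid synthesis, amino acid uptake and many cytosolic synthetases, a programme called the integrated stress response.

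Libraries were sorted into 4 batches without use of the dose. Batch 1 was set by the site of library construction. The provider's libraries were cut into a preset number of 3 clusters by how both deposited count sets of the same library differ. Replicate 1 of 200 and of 0 ppb, made at a hospital core, formed batch 1, and a commercial provider made the remaining 8. Batches 2 and 3 held replicates 2 and 3 of 200 and 0 ppb. Batch 4 held both 800 ppb libraries with replicates 4 and 5 of 0 ppb, so the 800 ppb group can be set against unexposed libraries of its own batch. No label names batches 2 to 4. Whether they reflect shared embryos, library preparation or the counting of reads was not tested. Markers of muscle, neurons, lens, blood, heart, skin, pigment cells, hatching gland, yolk and liver, leukocytes and dividing cells were all detected, and no matched marker was at 0 in every library. In bulk RNA of whole embryos, fewer cells of a type and less RNA per cell cannot be told apart.

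At 800 ppb, 2 of 18 cytosolic synthetases, nars1 and mars1, rose in the fit with the library batch as a term, beside 0.235% of all genes, and none passed in the fit with the site of library construction, beside 0.0383%. No mitochondrial synthetase passed in either fit. The 18 cytosolic genes together summed to 2467 and 2249 CPM (reads of a gene per megaread of its TMM-scaled library) in the 800 ppb libraries, against 1565, 1898, 1468, 1905 and 1730 CPM in replicates 1 to 5 of 0 ppb. Both 800 ppb sums lay above all 5 unexposed ones, and the means were 2358 ± 154 (SD, n = 2) at 800 ppb and 1713 ± 196 (SD, n = 5) at 0 ppb. The 14 mitochondrial genes summed to 138 and 150 CPM in the 800 ppb libraries, against 122, 170, 131, 142 and 138 CPM at 0 ppb, and these ranges overlapped.

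Each gene was tested with edgeR's quasi-likelihood F-test over all 10 libraries, with the site of library construction as a term, and called at a Benjamini-Hochberg adjusted p under 0.05 over all genes tested. At 800 ppb against 0 ppb no synthetase passed with this term, where 0.0383% of all genes tested were called higher and 0.00479% lower. Without adjustment, at p under 0.05, 13 of 18 cytosolic and 0 of 14 mitochondrial genes were higher, beside 1.96% of all genes, and 0 of either class were lower, beside 2.8% of all genes. DESeq2 with the same design called 1 synthetase, nars1, and limma-voom 0. The closing section gives the number of all genes that each of them called. The fit with the site term was the main one, and the batch term was an alternative. When the batch replaced the site, 2 of 18 cytosolic genes rose, nars1 and mars1, and 0 of 14 mitochondrial genes were called. Beside this, 0.235% of all genes were called higher. No synthetase was called lower with the batch term, where 0.0767% of all genes were. At an unadjusted p under 0.05 that fit had 16 of 18 cytosolic and 0 of 14 mitochondrial genes higher, beside 3.93% of all genes, and 0 of either class lower, beside 3.39%.

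**Figure D1:**
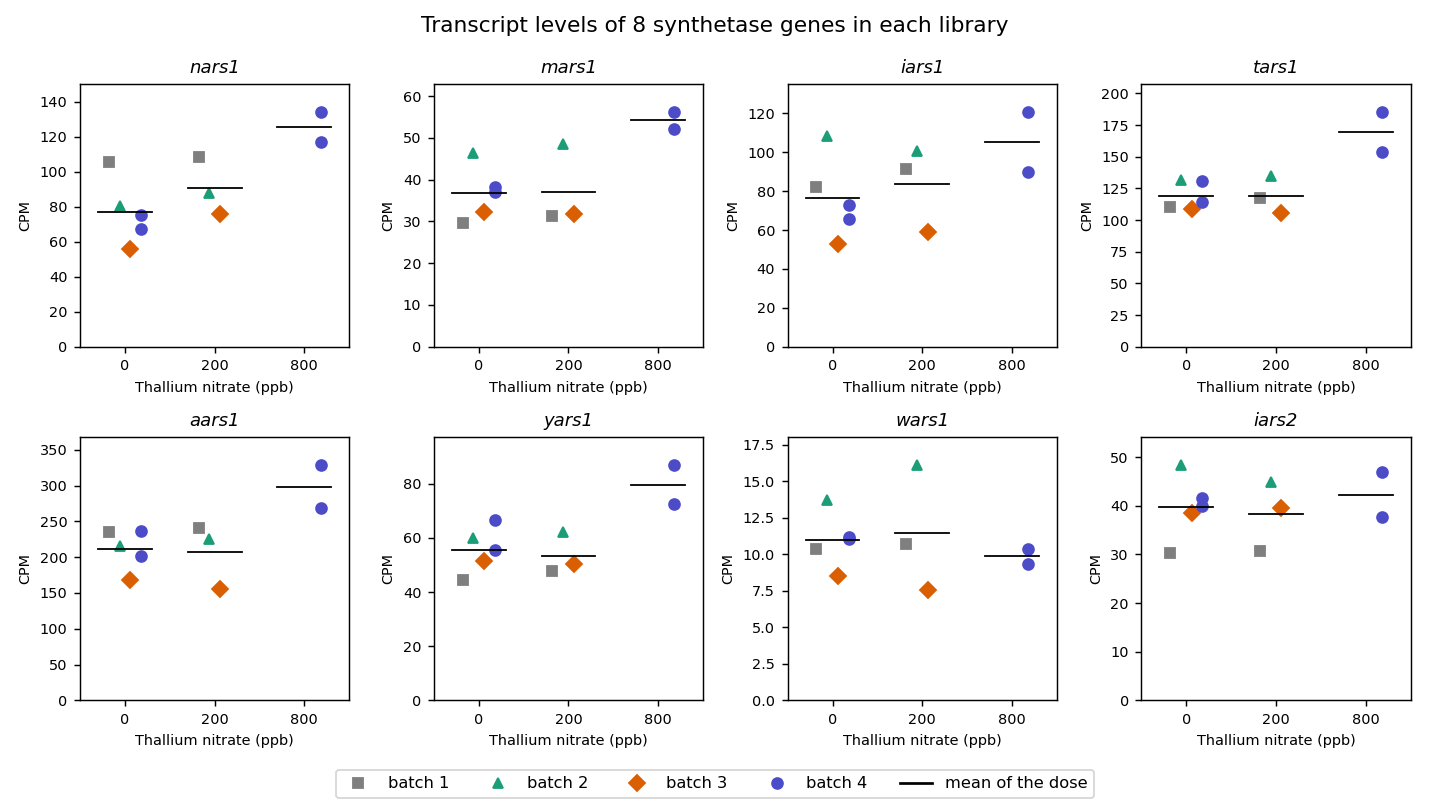
Level of 8 synthetase genes in each of the 10 libraries (vertical axis, TMM-scaled CPM from 0; horizontal axis, thallium dose in ppb; colours mark the library batch). nars1 sits at 134 and 117 CPM in both 800 ppb libraries, above all 5 libraries at 0 ppb, while wars1 and iars2 at 800 ppb lie within the range of 0 ppb.

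The gene that changed most was nars1 (ENSDARG00000061100), whose product charges tRNA with asparagine. It had 134 and 117 CPM in the 800 ppb libraries, against 75.3 and 67.2 CPM in the unexposed libraries of the same batch and 106, 80.3 and 55.6 CPM in replicates 1 to 3 of 0 ppb. Both 800 ppb libraries were higher than all 5 unexposed libraries. Its log2 fold change by the batch term was 0.82 (SE 0.11, edgeR, Benjamini-Hochberg adjusted p = 0.00162), a 1.77-fold rise, and by the site term 0.83 (SE 0.15, adjusted p = 0.151). By the batch term nars1 passed when any 1 of the 5 libraries at 0 ppb or 3 at 200 ppb was left out. Of these, only replicates 4 and 5 of 0 ppb enter its fold change by that term, which compares libraries within batch 4.

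The second gene called by the batch term, and not by the site term, was mars1 (ENSDARG00000034396). Its product charges tRNA with methionine, including the initiator. The gene mars1 had 56.2 and 52.1 CPM in the 800 ppb libraries, against 38.3 and 37.1 CPM in the same batch and 29.7, 46.4 and 32.4 CPM in replicates 1 to 3 of 0 ppb. Both 800 ppb libraries again exceeded all unexposed ones. The log2 fold change was 0.52 (SE 0.09, edgeR, adjusted p = 0.0239) with the batch term, a 1.44-fold rise, and 0.49 (SE 0.18, adjusted p = 0.930) with the site term. This call was kept with the batch term when replicate 2 of 800 ppb was left out and lost when any of the other 9 libraries was.

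Further cytosolic genes with small p-values did not pass the adjusted test. The isoleucine enzyme iars1 (ENSDARG00000007955) had 121 and 90.1 CPM in the 800 ppb libraries, against 72.7 and 65.5 CPM in the same batch and 81.9, 109 and 52.9 CPM in replicates 1 to 3 of 0 ppb. Its second 800 ppb library was below replicate 2 of 0 ppb, and the difference by the batch term was 0.61 on the log2 scale (SE 0.12, edgeR, adjusted p = 0.0514), against 0.50 (SE 0.27) by the site term. The site value of iars1 was 0.27 without replicate 1 of 800 ppb and 0.71 without replicate 2 of 0 ppb. The threonine enzyme tars1 (ENSDARG00000013250) had 185 and 154 CPM at 800 ppb, against 131 and 114 CPM in the same batch and 110, 132 and 109 CPM in replicates 1 to 3 of 0 ppb. Its 800 ppb libraries stood above all 5, with a log2 fold change of 0.47 (SE 0.10, edgeR, adjusted p = 0.0598) by the batch term. By the site term the fold change of tars1 was 0.49 (SE 0.14, edgeR, adjusted p = 0.930).

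The alanine enzyme aars1 (ENSDARG00000069142) had 328 and 269 CPM in the 800 ppb libraries, against 237 and 202 CPM in the same batch and 236, 216 and 168 CPM in replicates 1 to 3 of 0 ppb. The tyrosine enzyme yars1 (ENSDARG00000035913) had 86.8 and 72.6 CPM at 800 ppb, against 66.6 and 55.6 CPM in the same batch and 44.4, 60.1 and 51.5 CPM in replicates 1 to 3 of 0 ppb. For both genes the 800 ppb libraries were above all unexposed libraries. Their log2 fold changes by the batch term were 0.44 (SE 0.10, edgeR, adjusted p = 0.0963) for aars1 and 0.39 (SE 0.11, adjusted p = 0.288) for yars1. By the site term they were 0.55 (SE 0.17) for aars1 and 0.46 (SE 0.14) for yars1, each with an edgeR adjusted p of 0.930.

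The remaining cytosolic genes lay in a narrow band, apart from wars1. By the batch term the log2 fold changes were 0.41 for the valine enzyme vars1, 0.40 for farsa and 0.24 for farsb, the subunits of the phenylalanine enzyme, and 0.35 for the bifunctional glutamate and proline enzyme eprs1. They were 0.33 for the glycine enzyme gars1, 0.30 for the lysine enzyme kars1 and 0.28 each for the cysteine and glutamine enzymes cars1 and qars1. For lars1b (leucine), sars1 (serine) and rars1 (arginine) they were 0.27, 0.23 and 0.22. Standard errors of these 11 genes ran up to 0.105 and none passed the adjusted test.

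The tryptophan enzyme wars1 (ENSDARG00000100954) was the one cytosolic gene with a fold change below 0, with 10.4 and 9.36 CPM in the 800 ppb libraries, against 11.1 and 11.02 CPM in the same batch and 10.4, 13.7 and 8.50 CPM in replicates 1 to 3 of 0 ppb. Both 800 ppb libraries were below both of the same batch and within the range of all 5. Its log2 fold change was -0.17 by either term (SE 0.17 with the batch, 0.28 with the site), which did not pass. Read counts of the cytosolic genes ran from 111, for wars1, to 12893, for aars1, per library.

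Both 800 ppb libraries lay above all 4 unexposed libraries of the provider for 16 of 18 cytosolic genes, the exceptions being iars1 and wars1, and for 1 of 14 mitochondrial genes, mars2, beside 6.53% of all genes. Within batch 4, 17 of 18 cytosolic and 3 of 14 mitochondrial genes (lars2, mars2 and wars2) had both 800 ppb libraries above both unexposed ones, beside 16.5% of all genes. Both lay below both for wars1 and for the mitochondrial gene yars2, beside 16.3% of all genes. The 800 ppb libraries differed from each other as well: replicate 1 exceeded replicate 2 for 15 of 18 cytosolic genes, with a median log2 ratio of 0.10. In the unexposed libraries of that batch, replicate 4 exceeded replicate 5 for 17 of 18, with a median log2 ratio of 0.15.

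**Figure D2:**
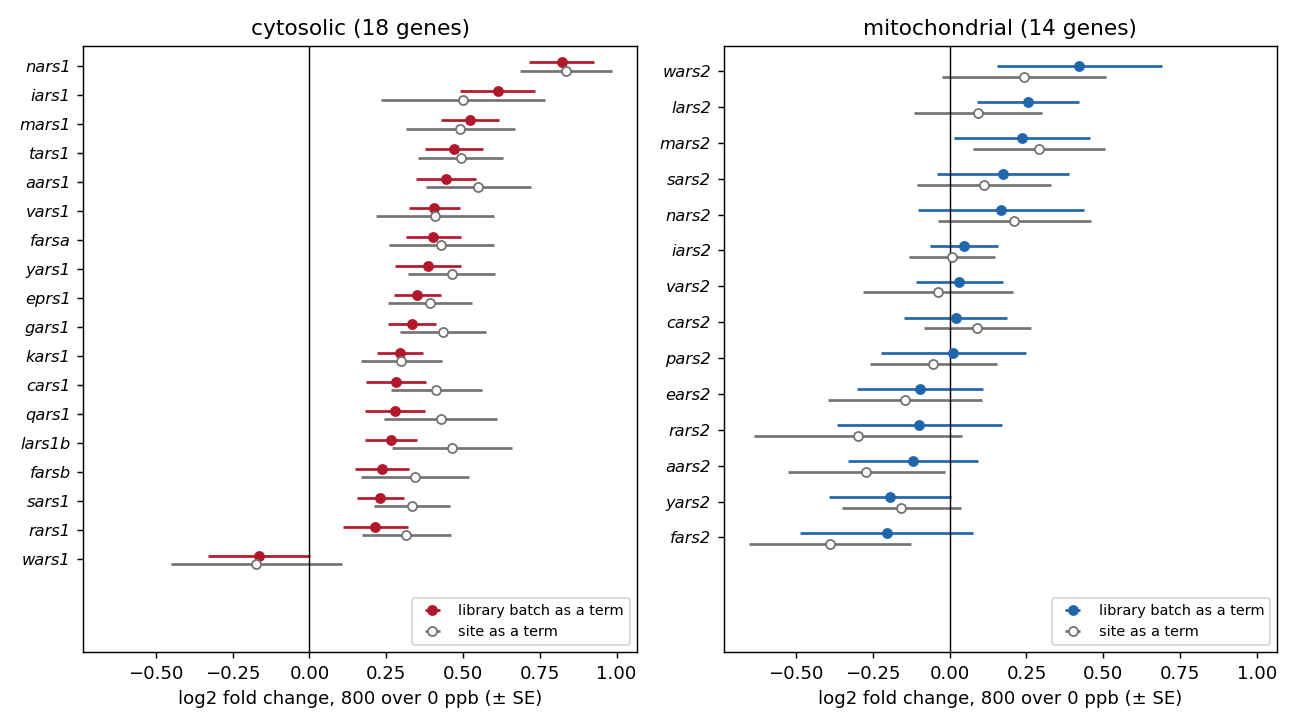
Log2 fold change at 800 ppb against 0 ppb of the 32 synthetase genes (horizontal axis; bars are 1 standard error), with 1 gene per line, for the site term and the batch term. Of the cytosolic genes 17 of 18 lie right of 0 under each term, with nars1 farthest at 0.83 and 0.82, and the mitochondrial genes lie on both sides.

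The median log2 fold change of the cytosolic genes at 800 ppb was 0.43 with the site term (range -0.17 to 0.83) and 0.34 with the batch term (-0.17 to 0.82). For the mitochondrial genes it was -0.02 (-0.39 to 0.29) and 0.03 (-0.21 to 0.42), and over all genes tested it was -0.01 and 0.00. The fold change was above 0 for 17 of 18 cytosolic and 7 of 14 mitochondrial genes with the site term, beside 48% of all genes, and for 17 of 18 and 9 of 14 with the batch term, beside 50.5%. The difference between the class medians was 0.44 for the site fit and 0.32 for the batch fit. Without replicate 1 of 800 ppb these differences were 0.24 and 0.12. The median standard error was larger for the mitochondrial genes, 0.23 against 0.16 for the cytosolic with the site term and 0.21 against 0.09 with the batch term, so a difference of the cytosolic size in a single mitochondrial gene would be harder to detect. Mitochondrial counts per library ran from 36, for nars2, to 1663, for iars2.

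Among the mitochondrial enzymes, wars2 (tryptophan, ENSDARG00000011801) had the largest fold change by the batch term. It had 4.48 and 5.14 CPM in the 800 ppb libraries, against 3.46 and 3.70 CPM in the same batch and 2.92, 5.10 and 4.32 CPM in replicates 1 to 3 of 0 ppb. The groups overlapped over all unexposed libraries, but both 800 ppb libraries lay above both of the same batch. The log2 fold change was 0.42 (SE 0.27) by the batch term and 0.24 (SE 0.27) by the site term. The leucine enzyme lars2 (ENSDARG00000075337) had 10.6 and 10.9 CPM at 800 ppb, above the 9.54 and 8.45 CPM in the same batch. Replicates 1 to 3 of 0 ppb had 11.2, 13.2 and 9.10 CPM of lars2, which overlapped with 800 ppb. Its log2 fold change was 0.25 (SE 0.17) by the batch term and 0.09 (SE 0.21) by the site term.

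The methionine enzyme mars2 (ENSDARG00000009218) had 6.51 and 5.90 CPM in the 800 ppb libraries, against 4.73 and 5.81 CPM in the same batch and 3.29, 5.41 and 4.25 CPM in replicates 1 to 3 of 0 ppb. These were the only mitochondrial values with both 800 ppb libraries above all 5 unexposed ones, and the lower of them exceeded the highest unexposed library by little. The log2 fold change was 0.24 (SE 0.22) by the batch term and 0.29 (SE 0.22) by the site term.

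By the batch term the lowest fold changes among mitochondrial enzymes were those of fars2, yars2 and aars2, and by the site term those of fars2, rars2 and aars2. The tyrosine enzyme yars2 (ENSDARG00000077299) had 8.41 and 7.51 CPM in the 800 ppb libraries, against 9.20 and 9.06 CPM in the same batch and 6.56, 10.5 and 7.62 CPM in replicates 1 to 3 of 0 ppb. The phenylalanine enzyme fars2 (ENSDARG00000091247) had 3.92 and 3.71 CPM at 800 ppb, against 5.24 and 3.62 CPM in the same batch and 4.58, 6.59 and 4.45 CPM in replicates 1 to 3 of 0 ppb. Over all unexposed libraries the groups overlapped for both genes. Within the same batch yars2 lay below both unexposed libraries, while fars2 overlapped with them. The log2 fold changes by the batch term were -0.20 (SE 0.20) for yars2 and -0.21 (SE 0.28) for fars2. By the site term they were -0.16 (SE 0.19) for yars2 and -0.39 (SE 0.26) for fars2.

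The alanine enzyme aars2 (ENSDARG00000107385) had 10.8 and 7.08 CPM in the 800 ppb libraries, against 9.46 and 10.1 CPM in the same batch and 9.19, 12.4 and 9.78 CPM in replicates 1 to 3 of 0 ppb. Its 800 ppb libraries fell on either side of the unexposed ones of their batch, and the log2 fold change was -0.12 (SE 0.21) by the batch term and -0.27 (SE 0.26) by the site term. For the other 8 mitochondrial genes the batch term gave log2 fold changes between -0.10, for ears2 and rars2, and 0.17, for nars2 and sars2, with cars2, iars2, pars2 and vars2 between 0.01 and 0.05. By the site term these 8 lay between -0.30, for rars2, and 0.21, for nars2. The isoleucine enzyme iars2 had 37.8 and 46.9 CPM in the 800 ppb libraries, against 41.7 and 40.0 CPM in the same batch and 30.4, 48.3 and 38.5 CPM in replicates 1 to 3 of 0 ppb, which overlapped.

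For 14 amino acids the set holds both a cytosolic and a mitochondrial gene, which makes 15 pairs because phenylalanine has both farsa and farsb against fars2. The gene eprs1 enters for glutamate and again for proline. At 800 ppb the cytosolic gene had the higher log2 fold change in 14 of 15 pairs with either term. The median difference was 0.49 in the site fit and 0.38 in the batch fit. In the batch fit it was largest for asparagine, 0.65 between nars1 and nars2, and small for leucine, 0.01 between lars1b and lars2, and for serine, 0.06 between sars1 and sars2. The exception was tryptophan, where wars1 was 0.59 below wars2 with the batch term and 0.41 below with the site term. The pairs share the same libraries and are not replicates.

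**Figure D3:**
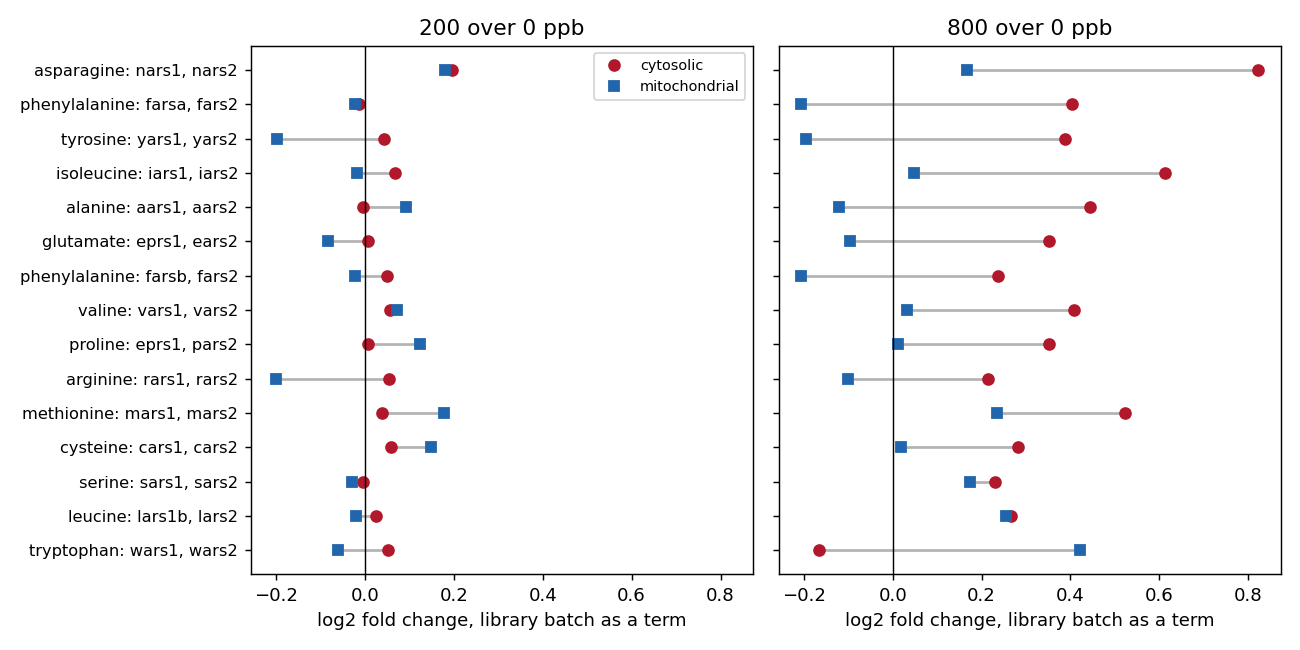
Log2 fold change by the batch term for each amino acid with both a cytosolic and a mitochondrial gene (vertical axis), at 200 ppb against 0 ppb on the left and 800 ppb against 0 ppb on the right; lines join the partners. At 800 ppb 14 of 15 lines have the cytosolic gene on the right, and at 200 ppb 10 of 15.

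Synthetases belong to 2 structural classes, and 7 of the cytosolic genes encode members of the multisynthetase complex of animal cells. At 800 ppb by the batch term, 7 of 9 class I and 8 of 8 class II cytosolic genes were higher at an unadjusted p under 0.05, with eprs1, which has a domain of each class, left out. Among complex members it was 6 of 7, and among the other cytosolic genes 10 of 11, all beside 3.93% of all genes. The median log2 fold changes were 0.28 for class I, 0.37 for class II, 0.30 for the complex and 0.39 outside it, and all 4 were 0.43 with the site term. Differences between these subsets were not tested.

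At 200 ppb no synthetase passed the adjusted test in any of the fits, and the site and batch terms called 0% of all genes in either direction. At an unadjusted p under 0.05 the site term had 0 of 32 genes and the batch term 1, nars1, beside 0.292% and 0.609% of all genes called higher; lower were 0 synthetases with either term, beside 0.283% and 0.494%. DESeq2 and limma-voom called 0 synthetases. With the replicate number as a block over the 200 and 0 ppb libraries alone, 0 synthetases passed beside 0.00989% of all genes called higher, and nars1 was the 1 gene higher at an unadjusted p under 0.05, beside 1.72%. nars1 had 109, 88.1 and 75.9 CPM in replicates 1 to 3 of 200 ppb, against 106, 80.3 and 55.6 CPM in replicates 1 to 3 of 0 ppb. It was the 1 of 18 cytosolic genes above its partner in 3 of 3 pairs, beside 11.6% of all genes. Its log2 ratios were 0.04, 0.13 and 0.45 in replicates 1 to 3. Its log2 fold change was 0.20 (SE 0.08, edgeR, Benjamini-Hochberg adjusted p = 0.9999) by the batch term and 0.18 (SE 0.13) by the site term.

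Among mitochondrial genes, 5 of 14 (cars2, mars2, nars2, pars2 and vars2) were above their partner in 3 of 3 pairs, beside 11.6% of all genes, and rars2 was below in 3 of 3, beside 12.4%. The median log2 fold change at 200 ppb was 0.04 for the cytosolic and -0.02 for the mitochondrial genes with the batch term, and -0.02 and 0.06 with the site term, so its order between the classes turned with the term. By replicate, 16, 13 and 4 of the 18 cytosolic genes were above their 0 ppb partner in replicates 1, 2 and 3, beside 51%, 49.6% and 47.5% of all genes. The summed cytosolic level was 1621, 1964 and 1458 CPM in replicates 1 to 3 of 200 ppb, against 1565, 1898 and 1468 CPM in replicates 1 to 3 of 0 ppb. Each 200 ppb sum was close to its partner, and the batches differed from each other by more than the doses did.

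**Figure D4:**
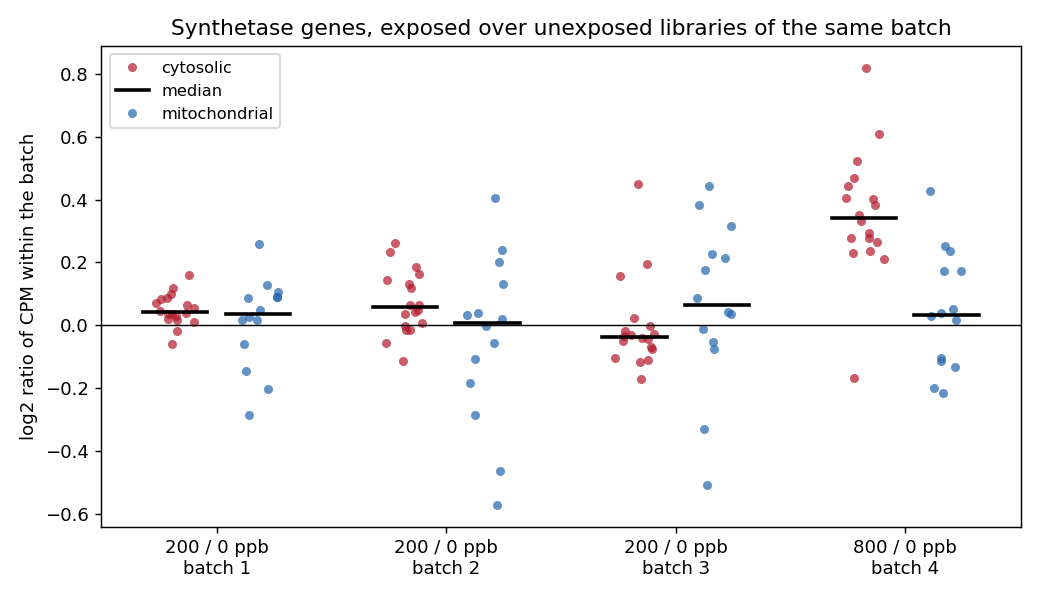
Log2 ratio of exposed to unexposed CPM within a batch for each synthetase gene (vertical axis), for the 3 pairs at 200 ppb and for the means of batch 4 at 800 ppb (horizontal axis); points are genes and bars are medians. The cytosolic medians are 0.04, 0.06 and -0.04 in the 200 ppb pairs and 0.34 at 800 ppb, and the mitochondrial median at 800 ppb is 0.03.

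By the site term both doses share the unexposed libraries, so those fold changes are not independent. By the batch term the 800 ppb values rest on batch 4 and the 200 ppb values on batches 1 to 3. These share no unexposed library, only the estimate of the spread. By the batch term nars1 was at 0.82 at 800 ppb and 0.20 at 200 ppb, mars1 at 0.52 and 0.04, iars1 at 0.61 and 0.07, and tars1 at 0.47 and 0.03. A test of the difference between the doses was not run.

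Genes that act beside the synthetases were examined as lists, chosen with earlier results of these data known. Of 37 ATF4 pathway genes tested, 10 rose at 800 ppb by the batch term and 3 by the site term, beside 0.235% and 0.0383% of all genes called higher, none was called lower, and the median log2 fold change was 0.33 and 0.17. The 3 were ASNS, which makes asparagine, SLC1A4, a carrier of neutral amino acids, and SLC7A3 (ENSDARG00000020645), a carrier of cationic ones. With the batch term PSAT1 and PHGDH of serine synthesis, sesn2, STC2 (ENSDARG00000056680), atf5b, SLC3A2 and SLC7A5 passed as well. SLC7A5 was at 0.59 by the batch term but 0.03 by the site term. It had 28.6 and 28.8 CPM at 800 ppb, against 18.2 and 19.9 CPM in the same batch. Replicates 1 to 3 of 0 ppb had 40.9, 45.9 and 26.4 CPM of SLC7A5. ASNS had 70.3 and 52.5 CPM in the 800 ppb libraries, against 27.1 and 32.4 CPM in the same batch and 33.8, 31.7 and 27.4 CPM in replicates 1 to 3 of 0 ppb, which did not overlap. Its log2 fold change was 1.05 (SE 0.13, edgeR, adjusted p = 0.00148) by the batch term. The factor genes themselves were at 0.07 (SE 0.08) for atf4a and 0.29 (SE 0.07) for atf4b by the batch term. By the site term they were at 0.14 (SE 0.19) and 0.43 (SE 0.15), and neither gene passed by either term. The 800 ppb libraries had 409 and 418 CPM of atf4b, above all 5 unexposed libraries, of which the highest had 340 CPM. For atf4a the groups overlapped.

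No gene of the other lists was called at 800 or 200 ppb by the site or the batch term. Among further synthetase genes, HARS2 had a log2 fold change at 800 ppb of 0.13 (SE 0.09) by the batch term, and lars1a and tars3 were at 0.26 (SE 0.21) and 0.02 (SE 0.12). By the site term these 3 were at 0.08, 0.30 and 0.18. HARS2 had means of 97.7 CPM at 800 ppb and 94.6 CPM at 0 ppb, against 42.3 and 39.8 CPM for iars2, the highest mitochondrial member. Whether the product of HARS2 serves the cytosol, mitochondria or both was not tested. Of 10 genes for scaffold and trans-acting factors, 9 were above 0 by the batch term, with a median of 0.13, and 6 by the site term, with a median of 0.04, beside 50.5% and 48% of all genes. The scaffold AIMP2 was at 0.21 (SE 0.08) by the batch term and 0.14 by the site term. The tRNA exporter XPOT was at 0.20 (SE 0.09) by the batch term and -0.05 by the site term. The proofreading deacylases DTD1 and DTD2 were at 0.20 and -0.36 by the batch term and 0.34 and -0.64 by the site term. Of 12 cytosolic elongation factor genes, 8 were above 0 by each term, with medians of 0.08 by the batch and 0.04 by the site. By the batch term EEF1B2, EEF1D and eef2b were at 0.17, 0.16 and 0.08, and by the site term at -0.01, 0.24 and 0.25. Of 19 factors for mitochondrial translation and mitochondrial tRNA, 8 were above 0 by the batch term, with a median of -0.03, and 10 by the site term, with a median of 0.01. By the batch term TUFM, the mitochondrial elongation factor Tu, was at 0.12 (SE 0.08), its exchange factor TSFM at -0.24 (SE 0.17) and GATC, of glutaminyl-tRNA formation, at -0.24 (SE 0.18); by the site term they were at 0.19, -0.54 and -0.33. GTPBP3, which modifies mitochondrial tRNA, was at 0.93 (SE 0.53) by the batch term and 0.41 by the site term, with a mean of 1.78 CPM at 800 ppb and 0.908 CPM in batch 4 at 0 ppb.

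**Figure D5:**
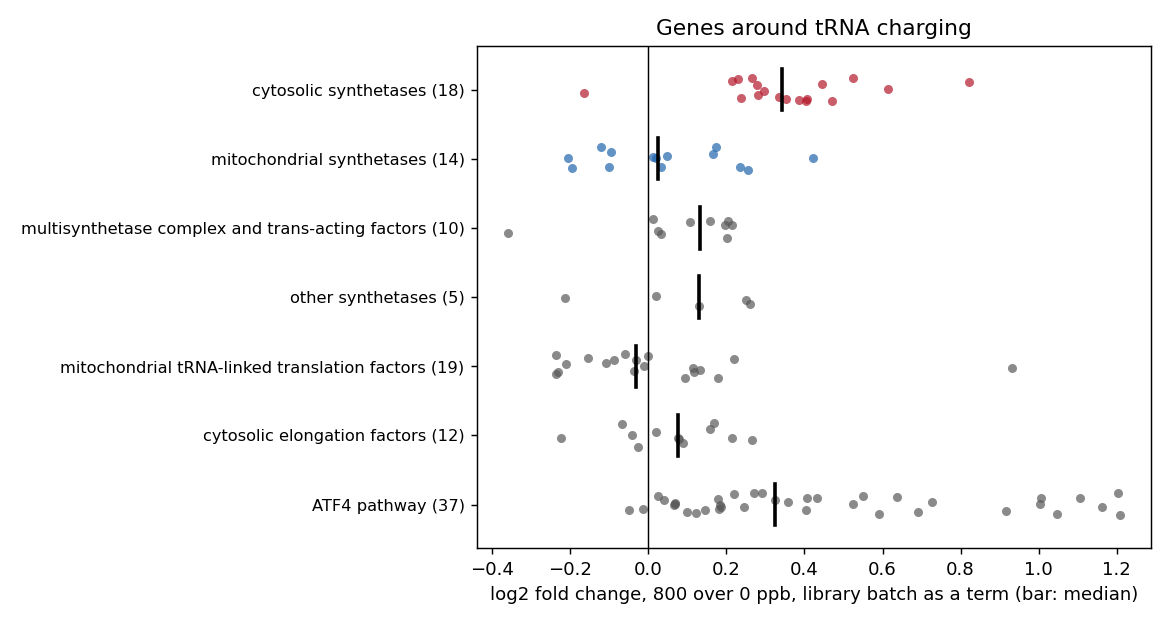
Log2 fold change at 800 ppb against 0 ppb by the batch term for each gene of the synthetase classes and the related lists (horizontal axis), with 1 point per gene and a bar at each list's median. The medians are 0.34 for cytosolic and 0.03 for mitochondrial synthetases and 0.33 for the ATF4 pathway.

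Cell type markers were read in the same libraries. Dividing cell markers summed to 1293 to 1447 CPM in the 800 ppb libraries, against 1433 to 1464 CPM in unexposed libraries of batch 4, and 2 of 9 were above 0 on the log2 scale by the batch term. Epidermal markers summed to 14575 to 19491 CPM at 800 ppb, against 17012 to 19541 CPM in batch 4 at 0 ppb. Of these, 0 of 6 were above 0 by the batch term, with a median of -0.11, and 1 of 6 by the site term, with a median of -0.24. Muscle markers summed to 50722 to 51108 CPM at 800 ppb, against 50345 to 53969 CPM in batch 4 at 0 ppb. Their median was -0.02 by the batch term and -0.13 by the site term. Lens markers summed to 1656 to 2370 CPM at 800 ppb, against 1288 to 2183 CPM in batch 4 at 0 ppb, and 7 of 8 were above 0 by the batch term, with a median log2 fold change of 0.24, against 4 of 8 and -0.03 by the site term. Cardiac muscle markers summed to 145 to 165 CPM at 800 ppb, against 139 to 142 CPM in batch 4 at 0 ppb and 139 to 172 CPM over all 5 unexposed libraries. Of these, 5 of 7 were above 0 by the batch term, with a median of 0.11, and 2 of 7 by the site term, with a median of -0.10. The other 6 marker lists had medians between -0.16 and -0.01 by the batch term. By the site term they lay between -0.29, for yolk and liver, and 0.19, for erythrocytes. Of all marker lists, 1 gene, among the 7 tested of cardiac muscle, was called higher at 800 ppb by the batch term, beside 0.235% of all genes. By the site term it was 0, beside 0.0383%. The part of the markers in the synthetase differences was not tested.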

How the data were processed

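Transcripts of whole embryos were sequenced in 10 libraries, grouped by the dose in the sample titles. Tools in the submitters' processing notes, none with a version, were STAR, cutadapt, FastQC and edgeR, with the build GRCz11. The sources used here do not give the counter, the annotation or whether strand was used, so genes overlapping on opposite strands could not be told apart. How reads were counted that match more than 1 paralog, such as lars1a and lars1b, is likewise not known. For each library the authors deposited raw counts of reads per gene, tested here, and for the series a table of log2 CPM values for 18963 genes. The hospital core's files held 463 further features (0.339% and 0.342% of their counts), which were left out. Undoing the logarithm of the authors' deposited log2 values (prior count 2) returned whole reads, within a tolerance of 0.05 reads, at 100% of values tested. Those were 18244 to 18822 values per library, without the highest. The recovered reads served as an alternative count set. For the provider's libraries they totalled 1.12 to 1.19 times the count files over the same genes. They equalled the count files at 0.69% to 1.71% of genes there. The ratio of the count files to the recovered reads, over 13232 genes with at least 50 reads, also defined the batches of the provider's libraries. Correlations of this ratio between provider libraries were 0.903 to 0.952 within 3 set clusters and 0.748 to 0.818 between them. What makes the ratio differ was not tested.

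The fits used edgeR 4.0.16 under R 4.3.3 (TMM, filterByExpr by dose, two-sided quasi-likelihood F-test, Benjamini-Hochberg over 20867 genes). The common dispersion was 0.0419 in the site fit and 0.00757 in the batch fit, on 6 and 4 residual degrees of freedom; the 800 ppb group drew its spread from all groups. Fold changes are from the fit and the standard error is the log2 fold change over the root of F. The test was run on simulated counts without a site or batch effect and with a common dispersion for all genes. That run cannot show how the test behaves under the batch differences of these libraries. DESeq2 1.42.0 and limma-voom 3.58.1 were alternatives, with others listed in the closing section. Deviations from the group mean of same-numbered libraries of 200 and 0 ppb correlated at 0.893, 0.511 and 0.685, so the numbers pair them, and those pairs equal batches 1 to 3; for 800 and 0 ppb the correlations were -0.141 and 0.0385, so those numbers do not. Libraries of a group differed beyond sampling noise. The chi-square of their counts per degree of freedom was 7.74 between the 800 ppb libraries and 6.97 between replicates 4 and 5 of 0 ppb. For the other pairs of a dose it ran from 26.0 to 205. Tables and plots used Python 3.11.15, pandas 2.3.3, scipy 1.17.1 and matplotlib 3.10.9.

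The members and lists were chosen with earlier results of these data known. Values per library are given for members past the test under either term and the 4 of each class with the smallest p under each; from each related list, genes past the test and those with the smallest p are named. Symbols came from a table that named 28988 of the genes. No genome or sequence was used, so a planned search of promoters for a motif was not run. Of the related genes, 2 are not reported here.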

Additional observations from a re-analysis of the deposited data

Results flagged for a closer look

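Among the 32 synthetase genes, the 5 libraries at 0 ppb held 1 value far from the rest: aars2 stood at 12.4 CPM in replicate 2, whose gap to the next library, over the range of the group, was 0.715 against a critical value of 0.71. Chance marks about 1 in 20 such groups, and 32 groups were examined.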

How the results depend on the processing

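At 800 ppb the number of synthetases called was 0 in the site fit, 2 in the batch fit, 1 with DESeq2 (nars1) and 13 with the replicate block beside the site term, a fit whose numbers do not pair 800 with 0 ppb and which called 6590 genes in all. The synthetases called in that fit included wars1 and the mitochondrial genes aars2, ears2 and rars2. Replicate 1 of 800 ppb is the only provider library of its block, so the site term absorbs it. The 800 ppb values of that fit thus rest on replicate 2 of 800 ppb against replicate 2 of 0 and 200 ppb. In wars1, aars2, ears2 and rars2, replicate 2 of 800 ppb lay below replicate 2 of 0 ppb, and in the remaining called synthetases above it. That fit turned iars1 to -0.18 and lars2 to -0.20 on the log2 scale. Over all genes, 9 were called in the site fit, 65 in the batch fit, 43 with DESeq2, 15 with the recovered reads, 2 with limma-voom and 1 with only the dose groups compared. Leaving out each library in turn gave 0 synthetases in the site fit and 1 to 5 in the batch fit, 5 of them without replicate 2 of 800 ppb. That count of 5 rests on 1 library at 800 ppb, replicate 1, which exceeded replicate 2 for 15 of 18 cytosolic genes. The number of all genes called in these batch fits is not given here, so the counts of synthetases have no background beside them. The difference between the class medians ran from 0.24 to 0.52 in the site fit and 0.12 to 0.38 in the batch fit, lowest without replicate 1 of 800 ppb. At 200 ppb no alternative called a synthetase. The class difference was -0.0776 in the site fit and 0.0594 in the batch fit, 0.0589 with the replicate block beside the site term and 0.0587 with the block over 0 and 200 ppb libraries alone. Leave-one-out values ran from -0.13 to -0.01 in the site fit and from -0.04 to 0.06 in the batch fit. The few 800 ppb libraries and the low counts of mitochondrial synthetases limit what can be detected.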
